A study of Mus musculus with 2 samples.

Results

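Clustered histone genes are the mouse genes that encode the bulk of the nucleosome's proteins and sit side by side in a few gene clusters. They were taken as all protein-coding genes of the GENCODE vM1 annotation (mm9) whose symbol starts with Hist1h, Hist2h, Hist3h or Hist4h, which gave 67 of 22380 protein-coding genes. A gene was called bound by Tcf1 when the summit of at least 1 deposited Tcf1 peak lay within 1 kb of any of its annotated start sites. By this rule 42 of the 67 genes (62.7%) were bound, through 37 peaks, beside 36.6% of all protein-coding genes. The bound share was lowest for H1, with 1 of 6 genes, and highest for H4, with 11 of 13 genes. The 42 bound genes are not separate measurements, because 15 of the 37 peaks lay within 1 kb of more than 1 clustered histone gene.

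H2A, H2B, H3 and H4 are the core histones around which DNA is wrapped, and H1 binds the linker DNA between nucleosomes. The clustered genes are the replication-dependent ones: they are mostly intronless, are expressed chiefly in S phase, and give mRNAs that end in a stem-loop in place of a poly(A) tail. H2A and H2B genes often stand head to head and share a short promoter region. Tcf1, encoded by Tcf7, is an HMG-box transcription factor of T cells that binds the Tcf/Lef core sequence and is known for its part in T cell development and in CD8+ T cell responses.

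The peaks came from ChIP-seq with a rabbit antiserum to Tcf1 in GFP+ TCRβ+ CD62Lhi CD44lo-med naïve CD8+ T cells sorted from mouse spleen, in 1 WT library against 1 Tcf1-deficient library. By the design text, both kinds of mice carried hCD2-Cre, which is active in lymphocytes, and the Rosa26-lsl-GFP reporter, so that the sorted GFP+ cells had undergone Cre recombination. The control cells are called Tcf1-deficient in the sample title, Tcf1-/-Lef1-/- in the genotype label and Tcf1/Lef1 double floxed in the design text, while the study's methods describe deletion of Tcf7 alone with Cd4-Cre, so whether the controls also lacked Lef1 cannot be told from these sources. The labels give no age or sex, and the study's methods state that its mice were young adults of either sex, without saying which were used for these 2 libraries. After removal of duplicates the WT library held 36938606 fragments and the control 27625250. The list held 22286 peaks, and a high-confidence subset of 19042 reached a fold enrichment of 4 with p below 1e-05 and q below 0.05. As a check of the label, summits lay within 1 kb of 6 of 6 T cell genes (Cd8a, Cd8b1, Cd3e, Cd3d, Cd3g and Tcf7), where all protein-coding genes gave 36.6%. Among genes of other cell types, Cd79a, Csf1r, Hbb-b1 and Alb had no summit there, while Itgam, a myeloid gene, had a peak with a fold enrichment of 10.3, above those of Cd8a (8.26), Cd3e (6.23) and Cd3g (5.30). With 1 library per group there is no replicate check and no test of any difference given here, and the 95% Poisson intervals of fragment counts cover counting error only.

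The share of bound genes stayed above that of all genes in each way of counting that follows. With high-confidence peaks only, 37 of 67 clustered histone genes (55.2%) were bound, beside 32.7% of all protein-coding genes. With a fold enrichment of at least 8 the gap was narrower, at 16.4% beside 11.7%. When the 5′ ends of genes closer than 1 kb were joined to promoter regions, so that a head-to-head pair counted once, 31 of 52 regions with a clustered histone gene (59.6%) were bound, beside 31.7% of all regions.

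The Hist1 cluster on chromosome 13, by far the largest, held 55 genes, of which 33 (60%) were bound. The counts by cluster and block stand beside 36.6% of all protein-coding genes. Its genes fell into 2 blocks and a lone gene. The block from Hist1h2bl to Hist1h2bj (chr13:21807632-22135545) had 16 of 23 genes bound, and the block from Hist1h4h to Hist1h2aa (chr13:23622919-24026720) had 17 of 31 genes bound. Hist1h2al, which lies apart from both blocks on the same chromosome, was unbound. The Hist2 cluster (chr3:96023839-96082924) had 7 of 9 genes bound, Hist3 on chromosome 11 had 1 of 2, and the only Hist4 gene, Hist4h4 on chromosome 6, was bound by a peak that was not of high confidence.

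**Figure D1:**
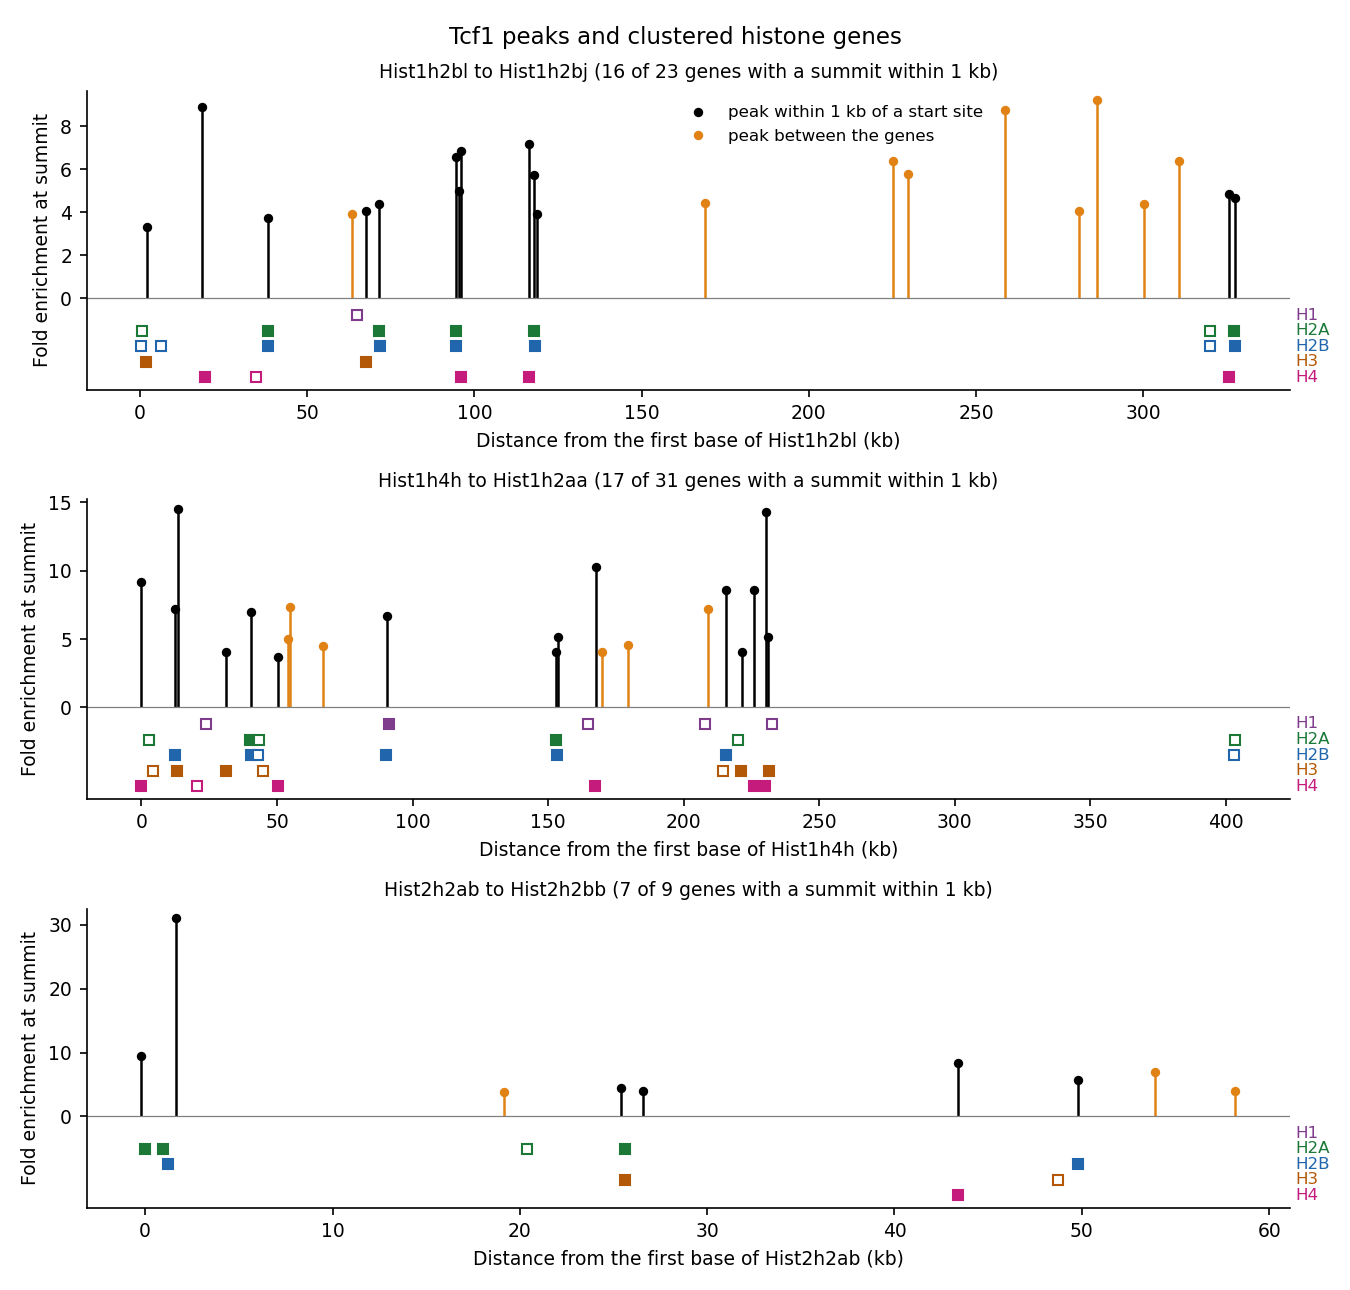
Fold enrichment of each Tcf1 peak (vertical lines, y axis) against distance in kb from the first base of the block (x axis), with peaks within 1 kb of a clustered histone start site in black and the peaks between the genes in orange. Squares under each axis mark gene starts by histone type, filled where the gene was bound and open where it was not. The peaks within 1 kb of start sites follow the groups of genes, most of the peaks between the genes in the first block lie in the long stretch without histone genes, and the far end of the second block holds an unbound pair with no peak near it.

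By histone type, H4 genes had the largest bound share, 11 of 13 genes (84.6%), followed by H2B with 12 of 18 (66.7%), H3 with 7 of 11 (63.6%) and H2A with 11 of 19 (57.9%). Only 1 of 6 H1 genes (16.7%) was bound, a share under that of all protein-coding genes, but within 2.5 kb the direction turned, with 66.7% of H1 genes beside 39.1% of all protein-coding genes. With high-confidence peaks the shares were 69.2% for H4, 61.1% for H2B, 54.5% for H3 and 52.6% for H2A. The order of H2B, H3 and H2A turned with the setting: H3 was over H2B within 500 bp (63.6% and 61.1%), and within 2.5 kb H3 (81.8%) and H2A (73.7%) were both over H2B (72.2%). The groups are small, so that 1 gene more or fewer moves the share of H3 or H4 by several percentage points, and no difference between types was tested.

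**Figure D2:**
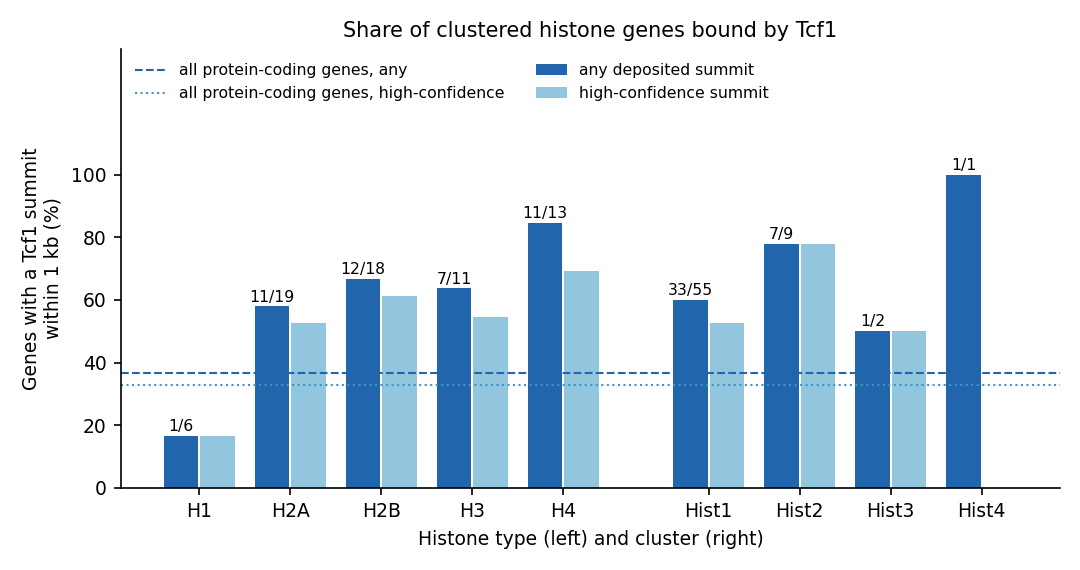
Percent of genes with a Tcf1 summit within 1 kb (y axis) for each histone type on the left and each cluster on the right, for any deposited peak (dark bars) and for high-confidence peaks (light bars). Fractions give bound over all genes, and the dashed and dotted lines give all protein-coding genes at 36.6% and 32.7%. At this window of 1 kb H1 is the only type under the lines (within 2.5 kb it is over, at 66.7% beside 39.1%), and H4 is the highest of the 5 types.

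The peaks at clustered histone genes were of ordinary size for promoter peaks. Fold enrichment is the WT pileup (how many WT fragments cover the summit) plus 1, over the local control level plus 1. The 37 peaks had a median fold enrichment of 5.72 (interquartile range 4.05 to 8.41), a median pileup of 36 fragments and a median width of 474 bp. The 8224 peaks within 1 kb of any protein-coding start site had a median fold enrichment of 6.08 (interquartile range 4.52 to 8.57), a median pileup of 39 fragments and a median width of 505 bp. In base composition the 2 sets stood further apart, with a median GC content within 100 bp of the summit of 53.2% at the histone genes and 62.7% at all protein-coding start sites. The control level was at its genome-wide floor of 5.42 fragments at 33 of the 37 peaks, so that fold enrichment there followed the WT pileup alone. Of the 37 peaks, 10 reached a fold enrichment of 8 and 1 reached 20.

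The highest of these peaks was at the head-to-head pair of Hist2h2ac, an H2A gene, and Hist2h2be, an H2B gene annotated with a long 3′ UTR. It spanned chr3:96024510-96025873, with a fold enrichment of 31 and a pileup of 198 fragments (95% interval 171 to 228) against a control level at the floor. Among all 8224 peaks at protein-coding start sites it ranked 60. Its summit was not in the promoter between both genes but 455 bp after the start of Hist2h2be, in the 3′ UTR just past the coding sequence. The next highest peaks were well under it, with a fold enrichment of 14.5 at Hist1h3f (92 fragments) and of 14.3 at Hist1h4a (91 fragments).

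The Hist2h2be peak was also 1 of 3 peaks at clustered histone genes with a Tcf/Lef core near the summit. The core, ATCAAAG, was looked for on either strand up to 100 bp from the summits, and was found at 3 of 37 peaks (8.11%), beside 4.66% of the peaks at protein-coding start sites and 9.76% of all deposited peaks. In the 3 stretches that follow, the core is in capitals, and each is printed on the strand that reads ATCAAAG. The genes are Hist2h2be (chr3:96025491-96025517, minus strand), Hist3h2a (chr11:58768011-58768037, minus strand) and the space between Hist1h2bh and Hist1h3f (chr13:23635339-23635365, plus strand).
Hist2h2be: actttaaaagATCAAAGgggccagcga
Hist3h2a: attgtattcaATCAAAGggagtgatgc
Hist1h2bh and Hist1h3f: taactgtccaATCAAAGgaagcatatt
The centre of the core was 5 bp from the summit at Hist2h2be, 4 bp at Hist3h2a and 11 bp between Hist1h2bh and Hist1h3f. Of the 383 peaks at protein-coding start sites with the core, 155 (40.5%) had it within 11 bp of the summit, and their median distance was 19 bp. At Hist3h2a the peak with the core had a fold enrichment of 7.32 (46 fragments), and the peak between Hist1h2bh and Hist1h3f had 7.17 (45 fragments). The core read backwards, GAAACTA, was found at 1 of the 37 peaks, again that of Hist2h2be. The other 34 peaks, among them that of Hist1h4a, held no ATCAAAG within 100 bp of the summit.

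H4 genes carried the tallest peaks as a group and the ones placed most tightly at the start. The 12 peaks within 1 kb of an H4 gene had a median fold enrichment of 7.79, from 3.66 to 14.3, and 6 of them were at or over 8. Those were the peaks of Hist1h4a (fold enrichment 14.3), Hist1h4c (10.3, 65 fragments), Hist1h4h (9.19, 58 fragments), Hist1h4j (8.88, 56 fragments), Hist1h4b (8.57, 54 fragments) and Hist2h4 (8.41, 53 fragments). The H4 genes of the low end were Hist1h4d, with a fold enrichment of 3.66 from 32 fragments over a raised control level of 8.02, and Hist4h4, with 3.89 from 25 fragments over 5.69. At 7 of the 11 bound H4 genes the nearest summit lay within 50 bp of the start site, and all 7 were upstream of it. The distances were 30 bp at Hist1h4a, 24 bp at Hist1h4b, 23 bp at Hist1h4h, 28 bp at Hist1h4i, 16 bp at Hist1h4d, 19 bp at Hist2h4 and 1 bp at Hist1h4n. Hist1h4m followed with its summit 67 bp downstream and Hist1h4c with its summit 106 bp upstream, while Hist1h4j had its summit 690 bp upstream and Hist4h4 460 bp downstream, past the annotated gene.

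The 100 bases upstream of H4 genes are shown for 3 of the strongest bound genes and for both unbound ones, each on the strand of the gene, with the last base next to the start site. Capitals mark, on either strand, CCCGCCC, which is a GC box, the TATA box with the letters TATAAA, and the CCAAT box. The stretches are Hist1h4a (chr13:23853100-23853199, minus strand), Hist1h4c (chr13:23790324-23790423, minus strand), Hist1h4h (chr13:23622819-23622918, plus strand), and the unbound Hist1h4k (chr13:21842375-21842474, minus strand) and Hist1h4f (chr13:23643518-23643617, minus strand).
Hist1h4a: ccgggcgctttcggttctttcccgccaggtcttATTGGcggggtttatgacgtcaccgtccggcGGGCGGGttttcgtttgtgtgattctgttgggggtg
Hist1h4c: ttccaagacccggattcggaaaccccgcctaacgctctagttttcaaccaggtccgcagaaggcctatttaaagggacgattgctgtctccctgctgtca
Hist1h4h: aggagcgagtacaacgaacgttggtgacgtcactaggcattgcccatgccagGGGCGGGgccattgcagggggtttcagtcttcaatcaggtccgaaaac
Hist1h4k: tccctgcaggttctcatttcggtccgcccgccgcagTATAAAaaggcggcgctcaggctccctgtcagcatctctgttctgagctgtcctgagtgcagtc
Hist1h4f: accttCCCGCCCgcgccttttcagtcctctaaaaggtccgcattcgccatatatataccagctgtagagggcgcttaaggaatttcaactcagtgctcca
In these 5 stretches bound and unbound genes shared boxes: the GC box stands in the bound Hist1h4a and Hist1h4h and in the unbound Hist1h4f, and the bound Hist1h4c holds none of the 3 boxes in this stretch. Over 250 bases upstream, a GC box was found at 7 of 13 H4 genes, of which 6 were bound, at 3 of 6 H1 genes, of which 1 was bound, at 4 of 19 H2A genes, and at 0 of 18 H2B and 0 of 11 H3 genes, beside 29% of all protein-coding genes.

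The 9 peaks within 1 kb of an H3 gene had a median fold enrichment of 4.05, the lowest of the core histone types, and 8 of the 9 were of high confidence. Hist1h3f stood apart from the other H3 genes with a fold enrichment of 14.5 (92 fragments, 95% interval 74.2 to 113). Its summit lay 417 bp after the annotated start, in an annotated 5′ UTR that is unusually long for a histone gene, and 16 bp before the coding sequence. The 250 bases before that start held no CCAAT box and no TATA box, while both stood within 100 bp of the summit. Whether the annotated start is the one used in these cells was not tested. At Hist1h3i, Hist1h3e and Hist1h3b the peak was at 25 fragments and a fold enrichment of 4.05, and at Hist1h3h it was at 29 fragments and 3.32, against a control level of 8.02. A pileup of 25 fragments, with a 95% interval of 16.2 to 36.9, is the smallest that reaches a fold enrichment of 4 over the floor, so that the side of the high-confidence limit on which these genes fall is within counting error. The nearest summit was at or after the start site at 6 of 7 bound H3 genes, with a median of 168 bp, and in the coding sequence at 5 of them. GC content within 100 bp of the summit was higher at H3 peaks, with a median of 66.7%, than at H4 peaks, with a median of 52.7%.

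**Figure D3:**
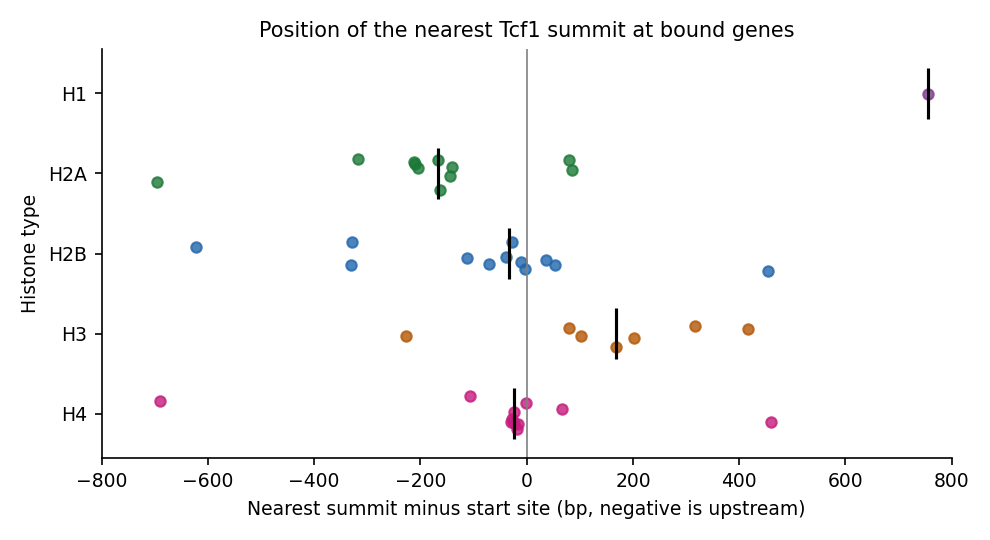
Distance in bp from the start site to the nearest Tcf1 summit (x axis, negative values upstream) at the bound genes of each histone type (y axis), with 1 point per gene and the median as a vertical bar. H4 points gather just upstream of the start site around a median of -23 bp, and H3 points lie mostly downstream around a median of 168 bp.

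H2A and H2B genes shared most of their peaks. Of 13 head-to-head pairs with start sites less than 1 kb apart, 12 joined an H2A with an H2B gene and 1 joined Hist1h2bh with Hist1h3f. A peak lay within 1 kb of both start sites in 9 of the 13 pairs, and in the other 4 pairs neither gene was bound. The unbound pairs were Hist1h2bl with Hist1h2ai, Hist1h2ah with Hist1h2bk, Hist1h2bf with Hist1h2ad and Hist1h2ba with Hist1h2aa. That both genes of a pair get the same call follows largely from the window, since the start sites of the H2A and H2B pairs were 305 bp or less apart. In the 8 bound H2A and H2B pairs the nearest summit had a median position of -16 bp from the H2B start and of -154.5 bp from the H2A start. These medians are of signed positions. The H2B positions lay on both sides of the start, from -331 bp at Hist1h2bc to 455 bp at Hist2h2be, so -16 bp is not their usual distance. At Hist1h2an with Hist1h2bp and at Hist1h2ac with Hist1h2bc it was the H2A start that lay nearer, at 86 and 80 bp, while the H2B start was 329 and 331 bp away. It was within 50 bp of the start at 3 of these 8 H2B genes and at 0 of the 8 H2A genes. Of these 3, Hist1h2bq and Hist1h2br lie in identical copies in which reads cannot be placed on 1 gene, and the other is Hist1h2bg.

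The boxes known from H2A and H2B promoters stood in bound and in unbound pairs. The spaces between the start sites of 2 bound pairs, Hist2h2ac with Hist2h2be (chr3:96024804-96025043) and Hist1h2ae with Hist1h2bg (chr13:23663090-23663264), and of 1 unbound pair, Hist1h2ah with Hist1h2bk (chr13:22127513-22127689), are shown on the plus strand. Capitals mark the CCAAT box, the TATA box (TATAAA) and the octamer (ATTTGCAT), a site of Oct factors known from H2B promoters, on either strand.
Hist2h2ac to Hist2h2be: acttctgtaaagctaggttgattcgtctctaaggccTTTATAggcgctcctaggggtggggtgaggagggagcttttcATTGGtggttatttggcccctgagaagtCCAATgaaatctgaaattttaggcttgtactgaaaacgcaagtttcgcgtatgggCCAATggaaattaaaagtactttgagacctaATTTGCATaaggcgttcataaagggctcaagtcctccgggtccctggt
Hist1h2ae to Hist1h2bg: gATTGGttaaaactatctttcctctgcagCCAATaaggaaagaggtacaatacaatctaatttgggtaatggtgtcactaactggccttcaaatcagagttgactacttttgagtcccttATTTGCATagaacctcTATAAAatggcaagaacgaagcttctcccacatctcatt
Hist1h2ah to Hist1h2bk: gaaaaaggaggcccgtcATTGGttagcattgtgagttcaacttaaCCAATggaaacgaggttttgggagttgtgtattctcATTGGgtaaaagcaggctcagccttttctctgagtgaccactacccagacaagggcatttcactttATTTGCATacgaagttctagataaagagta
All 3 spaces held 1 octamer, and the CCAAT box stood 3 times in the first, 2 times in the second and 3 times in that of the unbound pair. The TATA box stood 1 time in each bound space and 0 times in the unbound one. The second pair, Hist1h2ae with Hist1h2bg, had a peak with a fold enrichment of 7.01 and 44 fragments, whose summit lay 37 bp into Hist1h2bg.

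The same search was made over all 67 genes. In the 250 bases upstream of the 5′ end the CCAAT box was found at 57 of 67 clustered histone genes (85.1%), beside 35% of all protein-coding genes. It was present at all 6 H1, 19 H2A and 18 H2B genes and at 10 of 11 H3 genes, and at 4 of 13 H4 genes. The TATA box was found at 33 of 67 genes (49.3%), beside 12.3% of all. The octamer was found at 15 of 67 (22.4%), beside 1.62% of all, and these were 7 H2A and 8 H2B genes. Among bound and unbound genes the shares were 81.0% and 92% for the CCAAT box, 50% and 48% for the TATA box, and 21.4% and 24% for the octamer. They were 23.8% and 16% for the GC box, and 4.76% and 28% for AAACACA, the AC box, which stands mostly at H1 genes. The Tcf/Lef core stood upstream of 4 of 67 genes (5.97%), beside 3.05% of all. These were the bound Hist3h2a and Hist1h2bh and the unbound Hist1h2bf and Hist1h2ad, which face each other across 184 bp. An ETS core (CGGAAGT) was found at 2 genes (2.99%, beside 5.70%) and a Runx core (TGTGGTT) at 1 gene (1.49%, beside 4.16%). None of these strings contains another, both strands were searched, and a match describes the letters only. Upstream GC content was 44.8% at the median of bound and 44.4% at the median of unbound clustered histone genes, beside 54.0% for all protein-coding genes.

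The remaining H2A and H2B peaks of high fold enrichment were at single genes. Hist2h2ab had a peak with a fold enrichment of 9.50 (60 fragments) and its summit 204 bp upstream. Hist1h2bb had one with a fold enrichment of 8.57 (54 fragments) and its summit 39 bp upstream. Both lay in the promoter, unlike that of Hist2h2be. Lower in the Hist2 cluster, Hist2h2bb, an H2B gene, had a fold enrichment of 5.76 (36 fragments) 10 bp upstream. The overlapping Hist2h2aa1 and Hist2h3c1, an H2A and an H3 gene, shared peaks with fold enrichments of 4.52 (28 fragments) and 4.05 (25 fragments). Hist3h2a had a second, low peak in its coding sequence, with a fold enrichment of 3.43 (21 fragments), and the shared peak of Hist1h2ak and Hist1h2bn had 3.74 (23 fragments). These 2 were among the 5 lowest peaks at clustered histone genes, with those of Hist1h3h, Hist1h4d and Hist4h4.

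**Figure D4:**
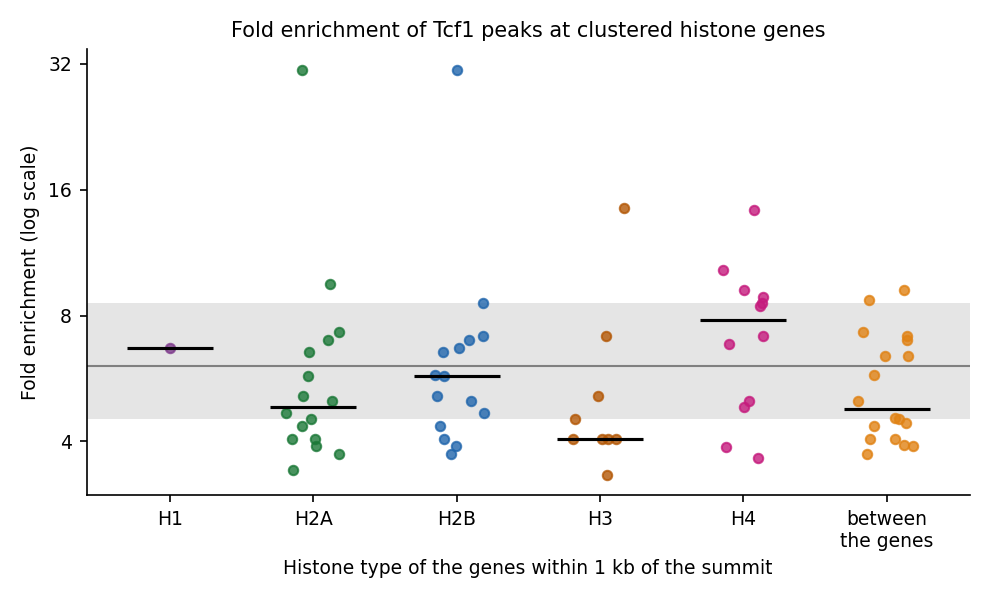
Fold enrichment on a log scale (y axis) of each Tcf1 peak within 1 kb of a gene of each histone type, and of the peaks between the genes, with 1 point per peak, the median as a black bar, and the median and interquartile range of all peaks at protein-coding start sites as grey line and band. A peak shared by genes of different types is drawn under each, which is why the highest point, at 31, appears under H2A and H2B. The H4 median, 7.79, is over the grey line at 6.08, and the H3 median, 4.05, is under the band.

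H1 genes had few peaks near their start sites. Hist1h1e, the only bound H1 gene, had its summit 756 bp after the start and 9 bp past the annotated 3′ end, under a peak of 1996 bp that covered the whole gene and was shared with the H2B gene Hist1h2be, with a fold enrichment of 6.70 and 42 fragments. Hist1h1c was unbound by the 1-kb rule, but its start site lay inside a peak of 1664 bp with a fold enrichment of 7.17 and 45 fragments, whose summit was 1279 bp after the start in the 3′ UTR. Hist1h1b had a summit 639 bp past its 3′ end, with a fold enrichment of 3.90. For Hist1h1a the nearest summit, 1362 bp upstream, was that of the neighbouring H3 gene Hist1h3a. Hist1h1d and Hist1h1t, the testis H1 gene, had their nearest summits 7135 bp and 2749 bp away. With a window of 2.5 kb, 4 of 6 H1 genes were bound, and with one of 500 bp, 0 of 6.

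The H1 promoters carry their own element, the AC box (AAACACA), which stood upstream of 5 of 6 H1 genes, beside 5.67% of all protein-coding genes. It is shown in capitals on the strand of the gene at the bound Hist1h1e (chr13:23714526-23714552, minus strand) and the unbound Hist1h1c (chr13:23830554-23830580, plus strand) and Hist1h1b (chr13:21872595-21872621, minus strand).
Hist1h1e: gaggtgtaacAAACACAactccgcatc
Hist1h1c: gaagtgtaacAAACACAagttgggcgc
Hist1h1b: ggggactaacAAACACAatttgggatt
The first letter of the AC box was 171, 112 and 117 bp upstream of the start sites of these genes, in that order. No peak at a clustered histone gene held the AC box within 100 bp of its summit, beside 2.91% of the peaks at protein-coding start sites.

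The 25 unbound genes were Hist1h1a, Hist1h1b, Hist1h1c, Hist1h1d and Hist1h1t among H1 genes, and Hist1h2aa, Hist1h2ab, Hist1h2ad, Hist1h2af, Hist1h2ah, Hist1h2ai, Hist1h2al and Hist2h2aa2 among H2A genes. They also comprised the H2B genes Hist1h2ba, Hist1h2bf, Hist1h2bk, Hist1h2bl, Hist1h2bm and Hist3h2ba, the H3 genes Hist1h3c, Hist1h3d, Hist1h3g and Hist2h3b, and the H4 genes Hist1h4f and Hist1h4k. The median distance from the start site of an unbound gene to the nearest summit was 2948 bp, and at 8 of 25 genes it was 1500 bp or less. No such distance is given here for unbound genes elsewhere. In these dense clusters the nearest summit can be that of a bound neighbour, as that of Hist1h4h is for Hist1h2af and Hist1h3g. Just outside the window were Hist2h3b at 1057 bp, Hist1h3c at 1093 bp, Hist2h2aa2 at 1215 bp and Hist1h1c at 1279 bp, and just inside it were Hist1h1e at 756 bp, Hist2h2ac at 696 bp and Hist1h4j at 690 bp. At 3 genes it was over 10000 bp. These were Hist1h2al, 87091 bp from the nearest summit, and the head-to-head Hist1h2ba and Hist1h2aa, the testis H2B and H2A genes, at 171850 bp and 172156 bp.

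Some clustered histone genes are too alike for a read to be placed on one of them. In the assembly, 10523 bp around Hist1h2bq and Hist1h2ao recur without a single difference, in inverted orientation, around Hist1h2ap and Hist1h2br (chr13:21893127-21903649 and chr13:21924031-21934553). For these 4 genes 0% of the 150-base windows within 1 kb of the 5′ end occur once in the genome, and for Hist1h4m and Hist1h4n, at the inner ends of the copies, 23.7% and 30.1% do. All 6 were bound, with peaks of 24 to 45 fragments, and for these genes a peak in one copy cannot be told apart from a peak in the other. Without them, 36 of 61 clustered histone genes (59.0%) and 9 of 11 H4 genes (81.8%) were bound. Over the other genes, the median share of windows found once was 94.4% at the 36 bound and 93.3% at the 25 unbound genes. The lowest of these were the bound Hist2h3c1 (55.8%) and Hist2h2aa1 (56.6%) and the unbound Hist2h2aa2 (56.9%). Their calls also rest in part on sequence found more than once. How reads with several equally good positions were treated is not given in the sources used here for this experiment. The peaks of Hist1h2bq, Hist1h2ao, Hist1h2ap and Hist1h2br lie where no 150-base window occurs once. Reads counted under them thus had more than 1 equally good position.

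**Figure D5:**
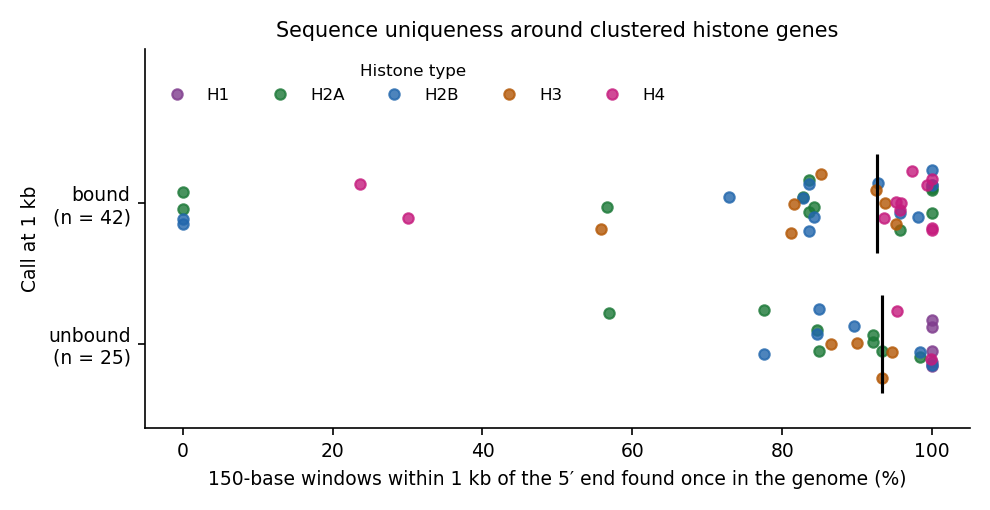
Percent of 150-base windows within 1 kb of a gene's 5′ end that occur once in the mm9 genome (x axis), for bound and unbound clustered histone genes, with 1 point per gene coloured by histone type and the median as a vertical bar. The 6 genes under 50% are all bound, and apart from them the bound genes range from 55.8% and the unbound ones from 56.9%, both up to 100%.

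The annotated start site can decide which peak a call rests on. Hist1h2be is annotated from a start site 35168 bp before its coding sequence, and its bound call rests on the peak it shares with Hist1h1e, 622 bp upstream of that start. At its coding sequence lay a separate peak (chr13:23677660-23677940) with a fold enrichment of 7.32 and 46 fragments, so that the gene was also bound when the first coding base was used. With the first coding base in place of start sites, an alternative added after the data were seen, 42 of 67 clustered histone genes were bound, each with the same call as before, beside 24.7% of all protein-coding genes.

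Between the clustered histone genes lay 18 more peaks, of which 15 were of high confidence. These were the summits inside a cluster, from its first to its last gene, that were over 1 kb from every clustered histone start site. Some of them therefore lay inside a clustered histone gene, away from its start. The median fold enrichment of all 18 was 4.77, from 3.74 to 9.19, with a median pileup of 36 fragments, and 15 of 18 had the control at its floor. The strongest (chr13:22093616-22094058, fold enrichment 9.19, 58 fragments) lay in no annotated gene, 3276 bp from the nearest start site, that of Prss16, a thymus serine protease gene. The next (chr13:22065850-22067032, fold enrichment 8.73, 55 fragments) lay at -6890 bp from the start site of Pom121l2, on its upstream side. Both were in the long stretch of the first Hist1 block that holds no histone genes. They were followed by the peak in the Hist1h2be coding sequence, by the wide peak over Hist1h1c, and by 1 (chr3:96077517-96078294, fold enrichment 7.01, 44 fragments) in an intron of Hist2h2bb. Of the 18, 5 were within 1 kb of the start of an annotated gene of any type, 2 of them protein-coding, Zfp184 and Hfe. Of the 18, 1 held the Tcf/Lef core within 100 bp of its summit, in an intron of Hist1h2be.

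Counting both kinds, the 2 large Hist1 blocks held 42 peaks in 0.732 Mb, or 57.4 per Mb. Chromosome 13 as a whole held 7.97 per Mb and the numbered chromosomes and X together 8.42 per Mb. Gene density also differs between these regions, and its part in the peak density was not tested.

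Replacement histone genes lie outside the clusters, and many of them are expressed outside S phase too. Of 12 listed, 11 were in the annotation under the symbol used, and 8 of these (72.7%) were bound, beside 36.6% of all protein-coding genes. The highest were Cenpa, for the centromeric H3 (fold enrichment 15.9, 101 fragments), H2afv (15.6, 99 fragments) and H2afz (12.8, 81 fragments), the H2A.Z genes. H3f3a and H3f3b, which encode H3.3, had 7.79 and 7.95, and H2afy2, H1fx and H1foo were unbound. Both H1 genes of this list that could be scored were thus unbound. They are too few to set beside the share of all protein-coding genes or of clustered H1 genes.

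Genes for factors that make or handle clustered histone mRNA and protein were listed in the same way. Of 23 listed, 22 were in the annotation, and 21 of these (95.5%) were bound, beside 36.6% of all protein-coding genes, with a median fold enrichment of 7.32 for the best peak. Npat and Casp8ap2, which act at the histone locus body, had fold enrichments of 8.41 (53 fragments) and 15.3 (97 fragments). Hinfp, a factor of H4 promoters, had 21.7 (138 fragments), and Asf1a, a chaperone of H3 and H4, had 23.7 (151 fragments). Slbp, whose protein binds the histone mRNA stem-loop, had a low peak, with 4.67 (29 fragments), and Cpsf3, the endonuclease that cuts histone pre-mRNA, had 19.2 (122 fragments). Ncbp1 was the only unbound gene of the 22. How these counts compare with other expressed genes was not tested, and no expression values were used here.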

How the data were processed

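Per the file headers and the study's methods, the authors aligned paired reads to mm9 with Bowtie2 (2.2.5) and called peaks with MACS2 (2.1.1.20160309), giving the Tcf1-deficient library as the control of the WT library, so replicates were neither present nor pooled. The deposited signal (pileup) is the coverage by WT fragments at the summit. The deposited fold enrichment is a ratio of pileup plus 1 to control level plus 1. The deposited −log10 p-value and −log10 q-value compare the 2 libraries, not the genotypes. The deposited positions and widths are in bp, 1-based.

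The control level was computed back as (pileup + 1)/fold enrichment − 1. Genes, start sites and sequence came from GENCODE vM1 and its genome NCBIM37 (mm9), and the tables of another build were not used for coordinates. Summits were assigned to start sites of all transcripts within 1 kb. Clusters joined genes at gaps of up to 250 kb. Windows of 150 bases were counted in the whole genome on both strands. Motifs were searched in 250 bases upstream and within 100 bp of summits. Scripts in Python (3.11.15, pandas 2.3.3) were tested on simulated data.

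Genes given with values are those of the 10 highest and 5 lowest peaks, of Hist2, Hist3 and Hist4, of the 5 highest peaks between the genes and of peaks with the core. Other genes given as examples, and the H1 genes, were chosen after their values were seen. One gene of the list for other cell types is not reported here. The members and lists were chosen with earlier results of these data known. No test was run with 1 library per group. The alternatives were peak limits, window sizes, start sites, promoter regions and cluster gaps.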

Additional observations from a re-analysis of the deposited data

How the results depend on the processing

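Of 56 alternative values for 10 results, 38 stayed within the limit set for no change (the 95% binomial interval of a share, or 1.5 times a count) and 18 moved. The share of clustered histone genes bound became 16.4% with a fold enrichment of at least 8, 41.8% with q under 1e-10, 76.1% within 2.5 kb and 47.8% where the peak had to cover the start site. The share of all protein-coding genes became 11.7%, 28.2%, 39.1% and 32.4% under the same settings, 32.7% with high-confidence peaks, 34.2% within 500 bp, 34.1% with the gene's 5′ end only, 20.3% and 31.7% in promoter regions from all start sites and from 5′ ends, and 24.7% from the first coding base. The share of H1 genes became 0% within 500 bp and 66.7% within 2.5 kb. The core read backwards was at 2.70% of peaks. Gaps of up to 100 kb left 10 peaks between the genes. Where a construction does not itself give the reason, the cause was not tested. The alternatives without the genes of low uniqueness, from 5′-end regions and from the first coding base were added after the data were seen. No paired analysis was possible because each group holds 1 library, and no replicate could be left out.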

Other observations

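Other protein-coding genes lie inside the Hist1 and Hist3 clusters. In the first Hist1 block Zfp184 was bound and Pom121l2 and Prss16 were not, and in the second Gm17658 and Hfe, an iron regulator, were bound and Trim38, Slc17a1, Slc17a2, Slc17a3 and Slc17a4 were not. Trim17, between the Hist3 genes, was bound. A low peak in the Hist2 cluster (fold enrichment 3.74, 23 fragments) had its summit 2 bp from the start of Hist2h3c2, a histone locus that the annotation does not class as protein-coding, so it counts among the peaks between the genes.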
